A study of Homo sapiens with 84 samples.

Results

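The genes described here are 52 genes of DNA replication and S phase, measured in 84 expression libraries of 2 human lung cancer cell lines. They were chosen by name, from what their proteins do, with earlier results of these data known. Of them 10 load the replicative helicase onto DNA, 6 start it and 9 belong to the primase and polymerases. Another 9 make up the sliding clamp, its loader and the single-strand binding complex. A further 3 join fragments or remove uracil, 5 supply nucleotides, 4 duplicate chromatin, 3 protect the fork or hold sister chromatids together, and 3 control the step from G1 into S phase. All 52 were found among the 57964 genes of the count table, and all 52 passed the filter on low counts in both lines, where 12832 genes were tested in NCI-H1373 and 14789 in NCI-H647.

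NCI-H1373 and NCI-H647 are established non-small cell lung cancer lines. After attaching overnight in 6-well dishes, the cells received RBN-2397 at 10, 30 or 300 nM, RBN012337 at 3, 10 or 100 nM, or the solvent DMSO alone, and were harvested 6 or 24 h later, with 3 libraries in each of the 28 groups. Per the labels both compounds inhibit PARP7, a mono-ADP-ribosyltransferase encoded by TIPARP. The submitters speak of triplicate experiments without saying whether a number stands for its own culture, plate or day, so the p-values reflect variation among libraries that could be technical in part. Each library was read from the 3' ends of transcripts and held 630855 to 6938648 estimated counts. EPCAM, KRT8, KRT18, KRT19 and CDH1, defining genes of epithelial cells, were detected in 42 of 42 NCI-H1373 libraries. In NCI-H647 KRT8 and KRT18 had medians of 306 and 433 CPM (counts of a gene scaled to the library total), EPCAM had 2.75 CPM, and CDH1 was at 0.218 CPM with a count in 25 of 42 libraries. Summed markers of fibroblasts, leukocytes and endothelium stayed at or under 21.6 CPM in every library. TIPARP, the gene of the target, averaged 1.04 ± 0.28 higher on the log2 scale over the 6 treatments than in DMSO at 24 h in NCI-H1373 (SE, adjusted p = 0.0118, edgeR quasi-likelihood test) and 0.27 ± 0.53 higher in NCI-H647 (adjusted p = 0.843).

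Replication is prepared in G1, when the origin recognition complex (ORC1, ORC6) with CDC6 and CDT1 loads the MCM2 to MCM7 ring onto DNA. Kinases with cyclin E (CCNE1, CCNE2) then help to start the ring, with CDC45, the GINS proteins and MCM10, and the polymerases copy both strands while PCNA holds them on. Most of these genes are transcribed around the entry into S phase by E2F factors, of which E2F1 is itself a member here. Their summed RNA is therefore widely used as a sign of how many cells are in cycle. In bulk libraries such as these, fewer cells in S phase and less RNA per cell cannot be told apart.

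The promoters of the members were searched for words that E2F factors are known to bind. The RefSeq table on GRCh38.p14 holds 44 of the 52 members. MCM4, MCM5, GINS4, POLD3, RPA2, RPA3, DSCC1 and CCNE2 are not in it. The words searched, on both strands and with overlaps counted, were TTTGGCGC, TTTCCCGC, TTTCGCGC and TTTGCCGC. At least 1 of them stood within 250 bases before the start in 14 of 44 members (31.8%) and in 761 of all 27305 promoters of the table (2.79%). The 14 were CDT1, E2F1, GINS2, LIG1, MCM3, MCM6, MCM7, PCNA, POLA1, POLA2, POLE, RFC3, TYMS and UHRF1. The word CCAAT, bound by NF-Y, stood in 25 of 44 members (56.8%) and in 33.0% of all promoters. TTTGAA, the cell cycle homology region known from genes of mitosis, stood in 1 of 44 (2.27%) and in 13.6%. The 160 bases before the start of 6 members called higher with treatment are printed 5′ to 3′ along the gene's strand. E2F words are in capitals. Printed are all 5 members with a word that were called at 24 h in NCI-H1373 over the mean of treatments, and MCM2. Of the members called there, 9 had no word, and of these MCM2 alone is printed. The printed 6 thus hold words more often than the called members do. MCM6 (chr2:135876444-135876603, minus strand) has 4 words as 2 overlapping pairs, beginning 152 and 148 and again 90 and 86 bases before the start. MCM7 (chr7:100101398-100101557, minus strand) has 1 of its 2 words in this stretch, 9 bases before the start. TYMS (chr18:657493-657652, plus strand) has 1 at 39 bases and POLA2 (chr11:65261802-65261961, plus strand) 1 at 53 bases. E2F1 (chr20:33686386-33686545, minus strand) has 2, at 33 and 20 bases. MCM2 (chr3:127598251-127598410, plus strand) has none of these letters in the window.
MCM6: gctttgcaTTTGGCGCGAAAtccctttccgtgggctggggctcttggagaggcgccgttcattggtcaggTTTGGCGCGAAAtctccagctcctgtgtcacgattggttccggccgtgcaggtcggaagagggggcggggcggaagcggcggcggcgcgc
MCM7: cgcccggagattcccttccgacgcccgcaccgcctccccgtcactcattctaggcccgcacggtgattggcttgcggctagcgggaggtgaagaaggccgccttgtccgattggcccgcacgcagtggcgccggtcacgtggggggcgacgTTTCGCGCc
TYMS: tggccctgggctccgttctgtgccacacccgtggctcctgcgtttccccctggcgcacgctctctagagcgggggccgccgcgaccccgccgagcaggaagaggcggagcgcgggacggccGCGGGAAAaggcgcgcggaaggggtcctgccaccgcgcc
POLA2: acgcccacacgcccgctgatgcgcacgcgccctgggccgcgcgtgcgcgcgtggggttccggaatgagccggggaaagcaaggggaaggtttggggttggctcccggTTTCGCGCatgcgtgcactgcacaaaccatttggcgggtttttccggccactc
E2F1: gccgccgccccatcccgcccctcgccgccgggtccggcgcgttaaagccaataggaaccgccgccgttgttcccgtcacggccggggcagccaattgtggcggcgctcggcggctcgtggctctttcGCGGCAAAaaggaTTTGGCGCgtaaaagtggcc
MCM2: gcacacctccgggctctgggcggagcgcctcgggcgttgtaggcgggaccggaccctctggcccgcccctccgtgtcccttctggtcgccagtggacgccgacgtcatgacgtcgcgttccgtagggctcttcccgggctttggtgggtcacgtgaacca

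Some 24 h libraries stood apart, and every comparison with DMSO at that time rests on them. The mean log2 CPM over the 52 members, called the replication score here, was 4.15, 4.02 and 5.22 in DMSO libraries 1, 2 and 3 of NCI-H1373 and 5.52, 3.89 and 4.65 in those of NCI-H647. Libraries of RBN012337 at 100 nM had 4.45, 4.10 and 5.13 in NCI-H1373 and 5.53, 3.78 and 5.32 in NCI-H647. The 15 libraries of the other 5 treatments held scores of 4.86 to 5.42 (median 5.24) in NCI-H1373 and 5.21 to 5.58 (median 5.40) in NCI-H647. In each line, then, 2 of 3 DMSO libraries lay below all 15, and the other DMSO library lay among them. At 100 nM RBN012337 the low libraries carried the same numbers as low DMSO libraries, 1 and 2 in NCI-H1373 and 2 in NCI-H647.

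**Figure D1:**
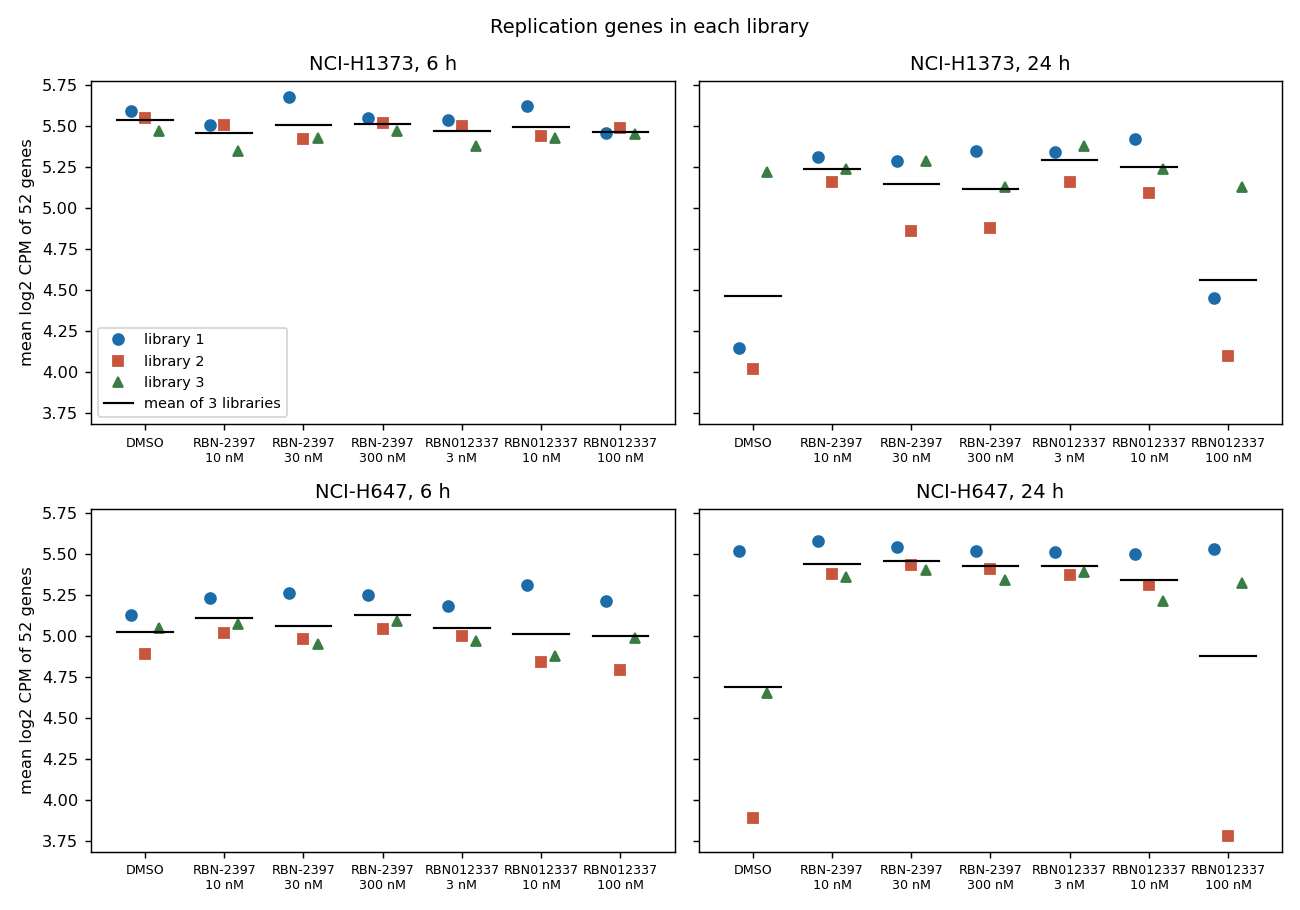
Mean log2 CPM of the 52 replication genes (vertical axis) in each library, by treatment (horizontal axis), for both lines at 6 and 24 h; symbols give the library number and bars the mean of 3. At 6 h all libraries lie between 4.79 and 5.68, while at 24 h the DMSO libraries run between 4.02 and 5.22 in NCI-H1373 and between 3.89 and 5.52 in NCI-H647.

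The low libraries were low for most members at once. In NCI-H1373 at 24 h, 28, 37 and 3 of the 52 members were below all 15 libraries of the other 5 treatments in libraries 1, 2 and 3 of RBN012337 at 100 nM, and 34, 40 and 6 were in those of DMSO. In NCI-H647 the counts were 1, 48 and 5 members at 100 nM and 2, 49 and 35 members in DMSO. The median SD of a member over the 3 libraries was 0.55 log2 CPM at 100 nM and 0.73 in DMSO in NCI-H1373, and 0.98 and 0.91 in NCI-H647, against 0.16 to 0.32 in the other treatments at 24 h. The widest DMSO spread belonged to UHRF1, which guides maintenance of DNA methylation, in NCI-H1373 (SD 2.12) and to PRIM1, the catalytic primase subunit, in NCI-H647 (SD 2.04).

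CDKN1A, whose product p21 inhibits cyclin-dependent kinases, moved with these libraries. In NCI-H1373 it had 86.0, 84.5 and 22.0 CPM at 100 nM RBN012337 and 100, 133 and 6.94 CPM in DMSO, against 13.2 to 60.5 CPM in the 15 other libraries. In NCI-H647 it had 34.5, 377 and 52.1 CPM at 100 nM and 18.7, 338 and 56.4 CPM in DMSO, against 24.1 to 95.5 CPM in the 15. It was highest in the 4 libraries of NCI-H1373 and the 2 of NCI-H647 with the lowest replication scores. DMSO library 3 of NCI-H647 had a low score and a CDKN1A level within the range of the 15. The summed epithelial markers of NCI-H1373 were 2550, 2190 and 4970 CPM at 100 nM and 2000, 2010 and 2440 CPM in DMSO, against 4090 to 7180 CPM in the 15. They were low in the libraries with low replication scores and also in DMSO library 3, whose score was not low. DMSO library 3 of NCI-H1373 is the shallowest of the series, with 630654 counts after rounding, whereas DMSO library 1 of that line has 3610536. The part of p21, of epithelial identity or of depth in the results below was not tested.

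After 24 h in NCI-H1373, 48 of the 52 replication genes had higher levels with treatment than with DMSO, and most of those past the test belong to the loading, primase and polymerase genes. Taking the mean of the 6 treatments against DMSO, 16 of 52 members were higher and 0 lower at an adjusted p under 0.05 (edgeR quasi-likelihood test, Benjamini-Hochberg over all genes), against 6.13% of all genes tested called higher. The median difference was 0.56 on the log2 scale over the members and -0.01 over all genes. By role, 6 of 10 loading genes (median 0.88) and 6 of 9 primase and polymerase genes (median 0.90) were called. Of the 9 clamp, loader and single-strand binding genes 1 was called (RFC2, median of the group 0.31), and of the 6 helicase-starting genes 1 was (CDC45, median 0.60). TYMS was the 1 of 5 nucleotide genes called (median 0.51) and E2F1 the 1 of 3 G1/S control genes (median 0.37). None of the 3 joining and uracil genes (median 1.04), the 4 chromatin genes (median 0.58) or the 3 fork and cohesion genes (median 0.07) was called.

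The 2 low DMSO libraries set the size of that count. Without DMSO library 1 the count fell to 2 members (MCM2 and MCM6), without library 2 it fell to 5 (MCM2, MCM6, POLD1, E2F1 and TYMS), and without library 3, the high one, it rose to 31, which include all 16. The count over all genes moved in the same order, to 239, 874 and 2044 called genes without library 1, 2 and 3, against 1559 with all libraries. The differences of MCM7 and TYMS without library 1 were 0.74 and 1.12 and were not called. Within a replicate number, the score of the 6 treated libraries minus that of the DMSO library had a median of 1.17 in number 1 (6 of 6 higher), 0.97 in number 2 (6 of 6 higher) and 0.02 in number 3 (4 of 6 higher). The members lower than all 15 other libraries in DMSO library 3 numbered 6, and 13 were higher than all 15 there.

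**Figure D2:**
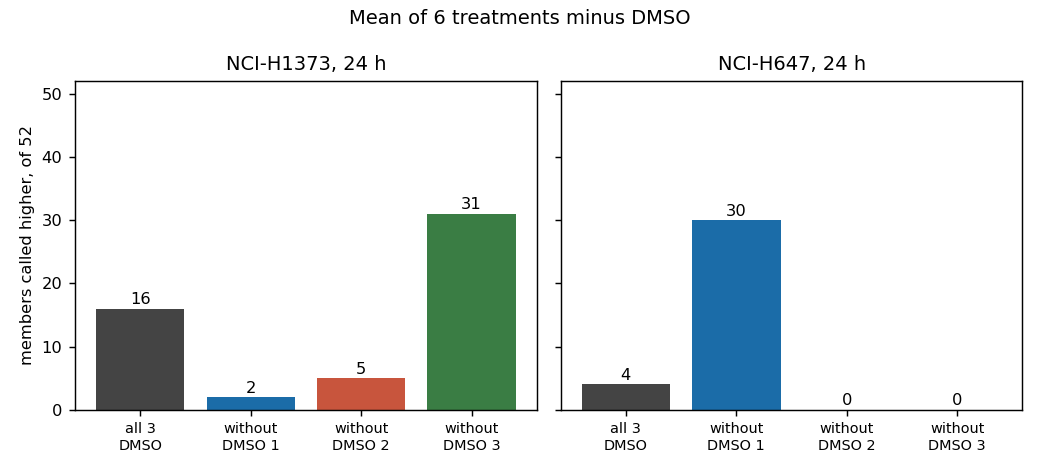
Number of the 52 replication genes called higher (vertical axis) for the mean of 6 treatments minus DMSO at 24 h, with all 3 DMSO libraries or with 1 left out (horizontal axis). The count is 16 and runs between 2 and 31 in NCI-H1373, and it is 4 and runs between 0 and 30 in NCI-H647.

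MCM2, a subunit of the helicase ring (ENSG00000073111.13, chromosome 3, 127598223 to 127622436 on GRCh38), was low in all 3 DMSO libraries of NCI-H1373 at 24 h. It had 58.3, 39.2 and 41.9 CPM with RBN-2397 at 300 nM and 21.3, 10.5 and 35.5 CPM with RBN012337 at 100 nM, against 9.30, 11.1 and 15.6 CPM in DMSO. The 15 libraries of the other 5 treatments ran from 28 to 77.9 CPM (median 43.0). No DMSO library reached the lowest of the 15, and 2 of the 100 nM libraries lay below it as well. The mean of 6 treatments was 1.93 ± 0.36 higher on the log2 scale (SE, adjusted p = 0.000654, edgeR quasi-likelihood test). In DMSO library 3 this level rests on 9 counts.

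MCM6 (ENSG00000076003.4, chromosome 2, 135839626 to 135876426), another ring subunit, had 77.3, 49.3 and 64.8 CPM with RBN-2397 at 300 nM, 29, 25.9 and 61.8 CPM with RBN012337 at 100 nM, and 23.2, 19.2 and 36.5 CPM in DMSO. Its 15 other libraries ran from 47.5 to 86.6 CPM (median 64.5), again above every DMSO library. The mean difference was 1.28 ± 0.24 (adjusted p = 0.000784). MCM7 (ENSG00000166508.17, chromosome 7, 100092728 to 100101940) had 185, 208 and 181 CPM with RBN-2397 at 300 nM, 76.4, 65.4 and 171 CPM with RBN012337 at 100 nM, and 47.5, 55.7 and 146 CPM in DMSO. Here DMSO library 3 lay within the 15 other libraries (134 to 222 CPM, median 188), and the mean difference was 1.07 ± 0.24 (adjusted p = 0.00375). MCM5, the fourth ring subunit called, had 58.7, 55.1 and 67.1 CPM with RBN-2397 at 300 nM, 13.9, 12.3 and 70.3 CPM with RBN012337 at 100 nM, and 13.4, 13.7 and 48.6 CPM in DMSO. Its library 3 values at 100 nM and in DMSO were several times those of libraries 1 and 2.

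TYMS, thymidylate synthase (ENSG00000176890.15, chromosome 18, 657604 to 673578), had 47.8, 41.3 and 55.7 CPM with RBN-2397 at 300 nM, 15.8, 13.0 and 46.5 CPM with RBN012337 at 100 nM, and 13.2, 18.2 and 22.6 CPM in DMSO. All 3 DMSO libraries lay below the 15 others (33.8 to 56.6 CPM, median 50.9), with a mean difference of 1.37 ± 0.28 (adjusted p = 0.00154). ENOSF1 lies on the other strand and overlaps the end of TYMS, and the handling of strand is not given in the sources used here, so the reads of both may be mixed. POLD1, the catalytic subunit of polymerase delta (chromosome 19, 50384204 to 50418016), had 14.2, 29.7 and 11.4 CPM with RBN-2397 at 300 nM, 6.45, 5.55 and 14.1 CPM with RBN012337 at 100 nM, and 3.62, 6.58 and 5.21 CPM in DMSO. It did not reach the lowest of the 15 others (10.2 CPM) in any DMSO library, and the mean difference was 1.44 ± 0.34 (adjusted p = 0.0046).

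CDC45, POLA2, E2F1 and ORC1 were also among the members called most often, and rest on 2 to 31 counts per DMSO library. CDC45, part of the moving helicase (chromosome 22, 19479459 to 19520612), had 11.3, 10.2 and 3.05 CPM with RBN-2397 at 300 nM, 2.26, 2.47 and 7.34 CPM with RBN012337 at 100 nM, and 3.87, 2.03 and 3.47 CPM in DMSO, with a mean difference of 1.35 ± 0.39 (SE, adjusted p = 0.0195, edgeR quasi-likelihood test). POLA2, the regulatory subunit of polymerase alpha, had 8.91, 10.2 and 15.2 CPM with RBN-2397 at 300 nM, 3.54, 1.23 and 14.1 CPM with RBN012337 at 100 nM, and 2.07, 3.54 and 3.47 CPM in DMSO. E2F1 (chromosome 20, 33675683 to 33686404) had 13.4, 13.1 and 10.7 CPM with RBN-2397 at 300 nM, 3.22, 2.47 and 12.8 CPM with RBN012337 at 100 nM, and 0.517, 6.58 and 3.47 CPM in DMSO. For CDC45 and POLA2 the DMSO libraries overlapped the lowest of the 15 others, at 3.05 and 2.55 CPM, and for E2F1 they did not reach the lowest, 7.01 CPM. ORC1, the largest subunit of the origin recognition complex (chromosome 1, 52372829 to 52404459), had 16.4, 13.1 and 13.7 CPM with RBN-2397 at 300 nM, 9.99, 3.08 and 9.17 CPM with RBN012337 at 100 nM, and 8.01, 3.04 and 15.6 CPM in DMSO. Its DMSO library 3 lay inside the range of the 15 other libraries, 12 to 20.5 CPM. In DMSO library 3, CDC45, POLA2 and E2F1 rest on 2 counts each, and ORC1 rests on 9.

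**Figure D3:**
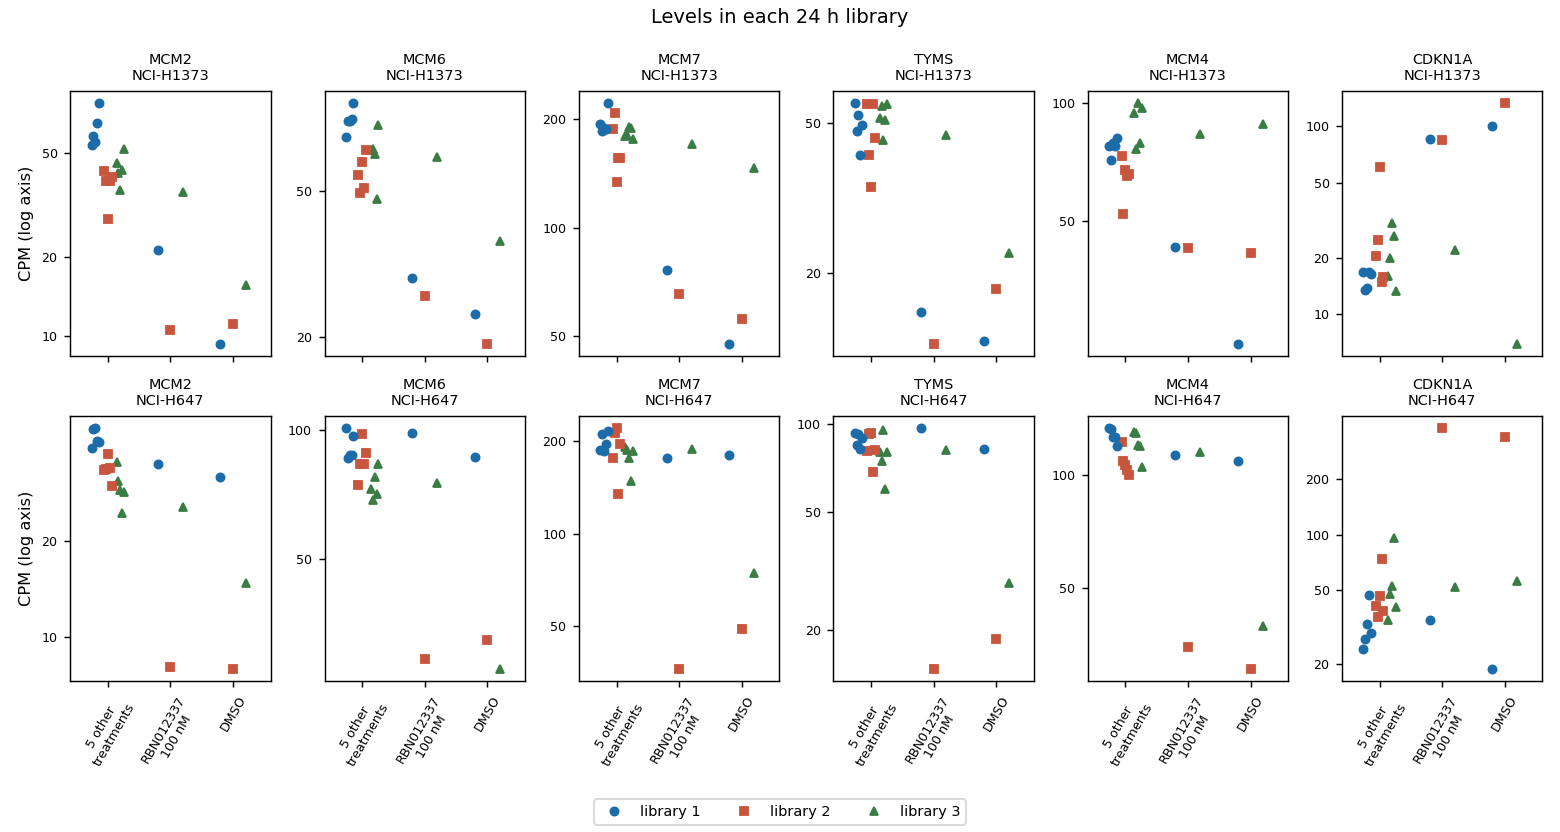
CPM on a log axis (vertical) of MCM2, MCM6, MCM7, TYMS, MCM4 and CDKN1A in every 24 h library, for the 5 other treatments pooled (15 libraries), RBN012337 at 100 nM and DMSO (horizontal axis); symbols give the library number. In NCI-H1373 the DMSO libraries of MCM2 lie between 9.30 and 15.6 CPM, below the 15 at 28 CPM and above, while CDKN1A reaches 133 CPM in DMSO.

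The 6 treatments did not all have the count of the mean. By single treatment in NCI-H1373 at 24 h, the counts called higher were 9, 5 and 10 members for RBN-2397 in order of dose (10, 30, 300 nM), against 4.26%, 1.68% and 6.83% of all genes called higher. With RBN012337 at 3, 10 and 100 nM the counts were 13, 7 and 0 members, against 4.96%, 1.86% and 0.195% of all genes. No member was called lower in any of the 6. The medians over the members were 0.62, 0.62 and 0.61 for RBN-2397 in order of dose and 0.72, 0.64 and 0.14 for RBN012337, with medians over all genes within 0.01 of 0. The 6 comparisons share their DMSO libraries, and are not independent of each other. At 100 nM RBN012337, where edgeR called 0 members and 2 had an unadjusted p under 0.05, DESeq2 also called 0. The members whose 3 treated and 3 DMSO libraries did not overlap, all of them higher, numbered 10, 7 and 13 for RBN-2397 (12%, 9.1% and 14.5% of all genes) and 16, 14 and 0 for RBN012337 (12.7%, 9.78% and 4.58%).

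MCM2, MCM6, TYMS and MCM7 were called in 5 of the 24 comparisons with DMSO, all of them at 24 h in NCI-H1373. POLD1 and CDC45 were called in 4 and ORC1 and E2F1 in 3. In all, 18 members were called in 1 or more of the 24 and 34 in none, among them PCNA, FEN1, RRM1, RRM2, RPA1, RPA2 and RPA3. How many of all genes were called in 1 or more of the 24 was not counted, so the 18 cannot be set against such a share. A single one of the 24 called up to 11.9% of all genes in either direction. Promoters with an E2F word belonged to 5 of the 16 members called over the mean of treatments in NCI-H1373, 9 had none and 2 are not in the table. The 14 members with a word had a median difference of 0.90 and the 30 without one had 0.49.

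**Figure D4:**
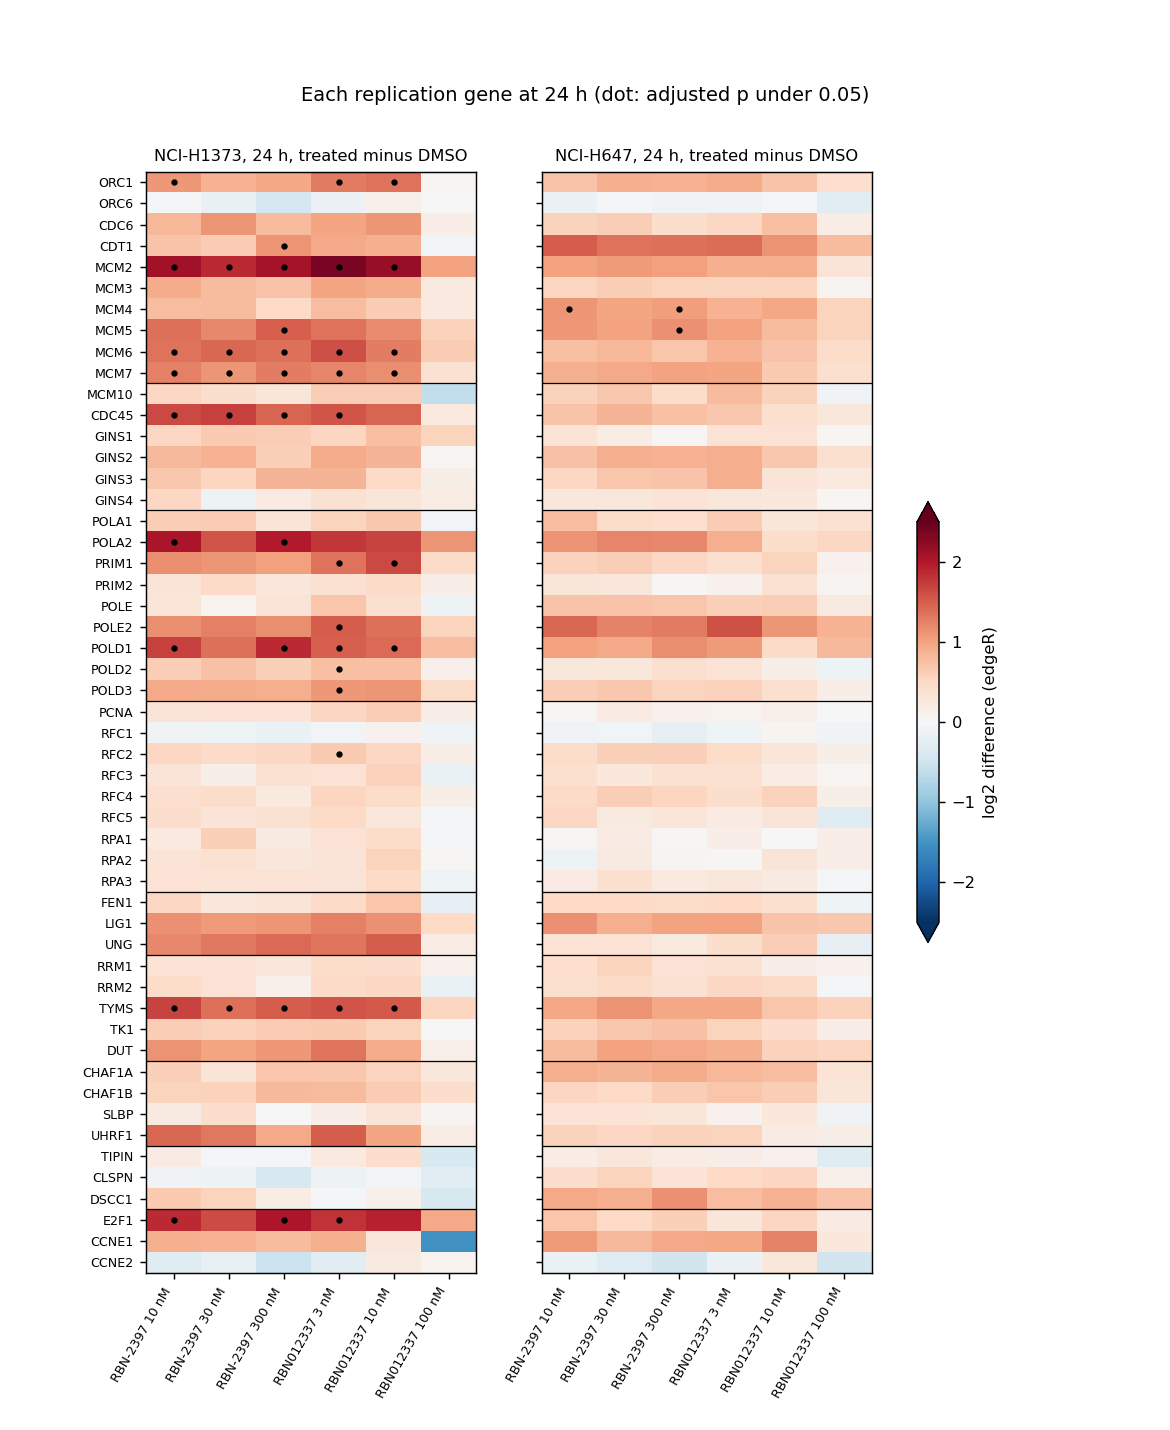
Log2 difference between each treatment and DMSO at 24 h (colour) for the 52 replication genes (rows, grouped by role) in both lines; dots mark an adjusted p under 0.05. In NCI-H1373 5 treatments carry 5 to 13 dots and RBN012337 at 100 nM none, with a median difference of 0.14, and NCI-H647 has 3 dots in all.

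In NCI-H647 at 24 h 49 of the 52 members had higher levels with treatment, and fewer passed the test. For the mean of 6 treatments 4 of 52 members were called higher and 0 lower (edgeR quasi-likelihood test), against 2.26% of all genes called higher, with a median difference of 0.49 over the members and -0.02 over all genes. The 4 were MCM4 by 0.92 ± 0.24 (SE, adjusted p = 0.0192), CCNE1 by 0.88 ± 0.25 (adjusted p = 0.0337), DUT by 0.80 ± 0.23 (adjusted p = 0.0365) and MCM5 by 0.93 ± 0.27 (adjusted p = 0.0396). The medians by role ran from 0.21 for the clamp, loader and single-strand binding genes to 0.78 for the loading genes. Without DMSO library 1, the high one, 30 members were called, including all 4. Without library 2 or without library 3 none was called. Over all genes the calls in these settings numbered 1666, 113 and 211, against 736 with all libraries. Within a replicate number the treated scores were higher by a median of 0.00 in number 1 (3 of 6 higher), 1.48 in number 2 (5 of 6 higher) and 0.70 in number 3 (6 of 6 higher).

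MCM4, a ring subunit, had 132, 109 and 129 CPM in NCI-H647 with RBN-2397 at 300 nM, 113, 34.8 and 115 CPM with RBN012337 at 100 nM, and 109, 30.3 and 39.4 CPM in DMSO. The 15 libraries of the other 5 treatments ran from 100 to 133 CPM, a range that holds DMSO library 1 and that libraries 2 and 3 fall far below. CCNE1, cyclin E1, had 15.3, 20.8 and 22.0 CPM with RBN-2397 at 300 nM and 15.8, 9.81 and 2.94 CPM in DMSO. DUT, the dUTPase that keeps uracil out of DNA, had 73.5, 88.7 and 72.4 CPM with RBN-2397 at 300 nM and 59.5, 26.5 and 35.9 CPM in DMSO. MCM5 had 91.3, 91.1 and 75.2 CPM with RBN-2397 at 300 nM and 68.6, 22.4 and 24.7 CPM in DMSO. In all 3 genes DMSO library 1 lay within the 15 libraries of the other 5 treatments, whose lowest values were 14.9, 45.5 and 63.8 CPM, and libraries 2 and 3 lay below them. By single treatment, the counts were 1 member (MCM4), 0 and 2 (MCM4, MCM5) for RBN-2397 in order of dose, against 1.08%, 0.696% and 2.22% of all genes. With RBN012337 at 3, 10 and 100 nM edgeR called 0 members, against 0.365%, 0.135% and 0.101% of all genes, where 17, 11 and 0 had an unadjusted p under 0.05 and DESeq2 called 3, 1 and 0. Over all genes 2223, 1167 and 862 had such a p and DESeq2 called 362, 63 and 59. At 30 nM RBN-2397 20 members had an unadjusted p under 0.05 and DESeq2 called 3. Over all genes 2108 had such a p at that dose and DESeq2 called 365.

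At 6 h the replication genes as a whole differed little from DMSO. The mean of 6 treatments had a median difference of -0.04 over the members in NCI-H1373 and 0.06 in NCI-H647, against 0.01 and 0.00 over all genes. In NCI-H1373 CCNE2 alone was called, lower, where 0.592% of all genes were called lower. In NCI-H647 edgeR called 0 members, where 0.0135% of all genes were called in either direction, and 1 had an unadjusted p under 0.05. DESeq2 also called 0 there. Scores of the 18 treated libraries ran from 5.35 to 5.68 (median 5.48) in NCI-H1373, against 5.59, 5.55 and 5.47 in DMSO. In NCI-H647 they ran from 4.79 to 5.31 (median 5.03), against 5.13, 4.89 and 5.05 in DMSO.

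CCNE2, the second cyclin E, fell at 6 h in NCI-H1373 by 1.58 ± 0.35 on the log2 scale over the mean of 6 treatments (SE, adjusted p = 0.0238, edgeR quasi-likelihood test). With RBN-2397 at 300 nM it had 6.35, 14.4 and 11.1 CPM, against 21.1, 79.2 and 34.1 CPM in DMSO, and that difference was also called (-2.06, adjusted p = 0.0418), where 0.631% of all genes were called lower. DMSO library 2 was far above the other 2, and all 3 lay above the 3 treated libraries. Without it the differences were -0.88 for the mean and -1.37 for 300 nM, and neither was called. At 300 nM the call was also lost without any single RBN-2397 library. With RBN012337 at 100 nM CCNE2 had 29.3, 26.1 and 11.9 CPM, which overlaps DMSO. In NCI-H647 the mean difference of CCNE2 was -0.81 ± 0.32 (adjusted p = 0.415).

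The DMSO groups themselves differed between the times. In NCI-H1373, DMSO at 24 h was lower than DMSO at 6 h for 24 of 52 members and higher for 0 (edgeR quasi-likelihood test), against 5.46% of all genes called lower, and the difference was negative for 52 of 52, with a median of -1.0 (0.03 over all genes). Genes that load or form the moving helicase had the smallest p-values: CDC6, the loader of the ring, at -2.12 ± 0.33 (SE, adjusted p = 0.000191), MCM6 at -1.82 ± 0.29 (adjusted p = 0.000265), MCM2 at -2.59 ± 0.41 (adjusted p = 0.000294), ORC1 at -1.89 ± 0.33 (adjusted p = 0.000643), CDC45 at -2.46 ± 0.44 (adjusted p = 0.000923) and MCM7 at -1.52 ± 0.30 (adjusted p = 0.00176). MCM2 had 9.30, 11.1 and 15.6 CPM at 24 h, against 105, 52 and 42.1 CPM at 6 h, with no overlap. MCM6 had 23.2, 19.2 and 36.5 CPM at 24 h, against 109, 77.1 and 75.0 CPM at 6 h. CDC6 (chromosome 17, 40287633 to 40304657) had 13.4, 14.2 and 36.5 CPM at 24 h, against 82.5, 95.5 and 65.2 CPM at 6 h. All 3 genes were below every 6 h library in each 24 h library, DMSO library 3 included. In all 22 members did not overlap between the times (8.5% of all genes). Without 24 h DMSO library 1, 2 or 3 the count was 7, 8 or 38. Without 6 h DMSO library 1 it was 13. Over all genes the calls in these settings were 209, 397, 1884 and 473, against 1170 with all libraries. In NCI-H647 edgeR called 0 of 52 members between the DMSO groups (0.284% of all genes in either direction). The median was -0.22, and it was 0.15 without 24 h DMSO library 2 and -0.83 without library 1. There CCNE1 (-0.76 ± 0.31, adjusted p = 0.331) and MCM4 (-0.67 ± 0.29, adjusted p = 0.361) had an unadjusted p under 0.05 and DESeq2 called 0, while without 24 h DMSO library 1 4 members were called. Over all genes 500 were called without that library, against 42 with all libraries.

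The treated libraries allow a comparison over time that uses no DMSO library, which was added after the data had been seen. In NCI-H1373 the mean of the 6 treatments was lower at 24 h than at 6 h for 28 of 52 members and higher for 0, against 17.9% of all genes called lower. The median was -0.40. RRM2, the regulated subunit of ribonucleotide reductase, fell by 0.66 ± 0.11 (SE, adjusted p = 1.17e-05, edgeR quasi-likelihood test). CDC45 fell by 0.88 ± 0.16, ORC6 by 0.67 ± 0.12, CDC6 by 0.66 ± 0.12, FEN1, a flap endonuclease, by 0.68 ± 0.13 and MCM10 by 0.77 ± 0.15. In NCI-H647 12 members were higher at 24 h than at 6 h and 0 lower, against 6.94% of all genes called higher, with a median of 0.30. RFC2 and RFC4, of the clamp loader, rose by 0.35 ± 0.09 (adjusted p = 0.00583) and 0.38 ± 0.11. CLSPN, a mediator of the replication checkpoint, rose by 0.41 ± 0.11, POLD3 by 0.49 ± 0.13, DUT by 0.40 ± 0.11 and POLE2 by 0.62 ± 0.18. Leaving out 1 library at a time, NCI-H1373 had counts of 26 to 38, and NCI-H647 had counts of 8 without RBN012337 100 nM library 1 to 30 without its library 2. The counts over all genes in these settings are not given here, so these shifts cannot be set against those of all genes. Whether the lines differed in the change over time was not tested.

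**Figure D5:**
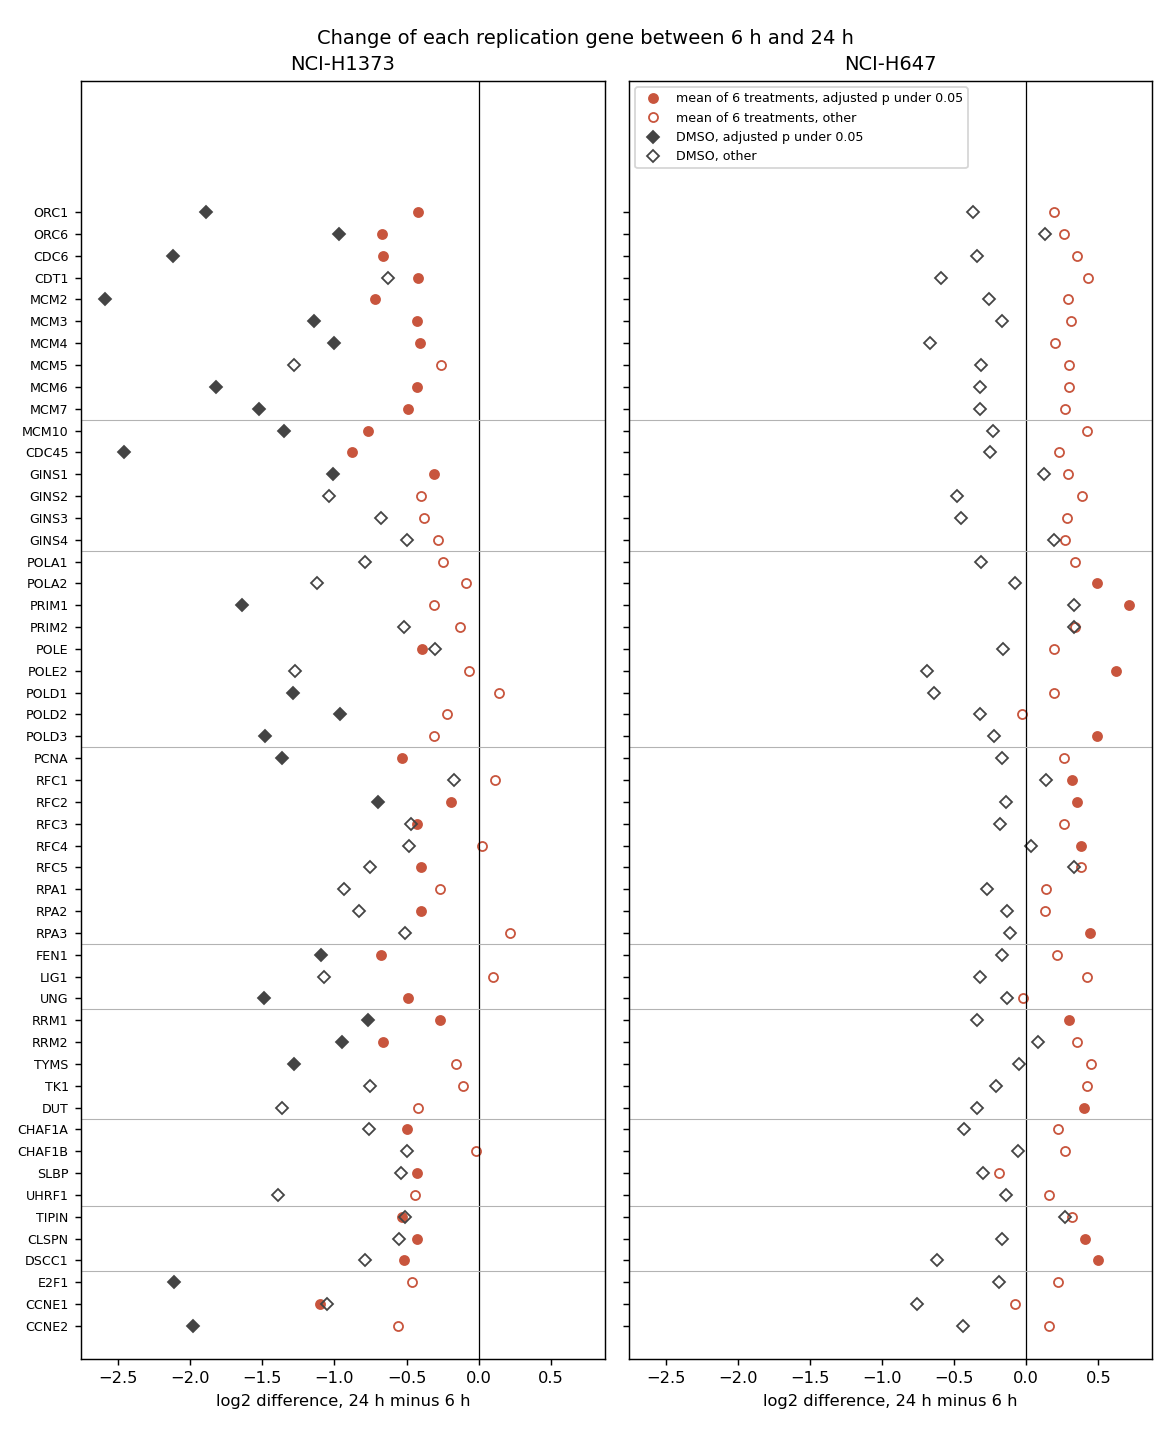
Log2 difference between 24 h and 6 h (horizontal axis) for each of the 52 replication genes (rows, by role) in the mean of 6 treatments (circles) and in DMSO (diamonds); filled symbols have an adjusted p under 0.05. The medians are -0.40 with treatment and -1.0 in DMSO in NCI-H1373, and 0.30 and -0.22 in NCI-H647, where the DMSO median is 0.15 without 24 h DMSO library 2.

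The difference from DMSO was larger at 24 h than at 6 h for 4 members in NCI-H1373, tested as the difference of both, where 0.382% of all genes were called higher. They were MCM6 (1.38 ± 0.31, SE, adjusted p = 0.0329, edgeR quasi-likelihood test), MCM2 (1.87 ± 0.43, adjusted p = 0.04), CDC6 (1.46 ± 0.34, adjusted p = 0.0403) and ORC1 (1.47 ± 0.35, adjusted p = 0.0421), all genes of helicase loading. The median over the members was 0.64. The count was 0 without 24 h DMSO library 1 or 2, or 6 h DMSO library 1 or 2, and 23 without 24 h DMSO library 3. Over all genes the calls in these settings were 12, 1, 0, 3 and 599, against 68 with all libraries. In NCI-H647 edgeR called 0 members and 0 of all genes. There 8 members and 894 of all genes had an unadjusted p under 0.05. The median over the members was 0.53, with 52 of 52 positive. DESeq2 called 4 members in NCI-H1373 and 0 in NCI-H647.

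Between the lines, no member's difference from DMSO was called at either time. At 6 h edgeR called 0 of 16177 genes and 0 members had an unadjusted p under 0.05. At 24 h it called 0.47% of all genes and 0 members, and MCM2 alone had an unadjusted p under 0.05, at 1.06 ± 0.48 higher in NCI-H1373 (adjusted p = 0.475). DESeq2 called 0 members at both times. Over the members the median of this difference at 24 h was 0.09, and it ran from -0.56 to 0.51 with 1 replicate number left out. The lines differed in their DMSO levels. At 6 h NCI-H1373 was above NCI-H647 for 15 members and below it for 1, where 15.6% of all genes were called higher and 17.8% lower, with a median of 0.65 over the members. RRM1, the large subunit of ribonucleotide reductase, was 1.80 ± 0.24 higher in NCI-H1373, TK1, thymidine kinase, 2.32 ± 0.38, DUT 2.10 ± 0.39, and the clamp loader genes RFC1 and RFC2 1.64 ± 0.24 and 1.18 ± 0.21. CCNE1 was the 1 lower, by -2.08 ± 0.45. Without replicate 3 of both lines 9 members were called, 8 of them higher. At 24 h 6 members were higher in NCI-H1373 and 9 lower, where 13.9% and 15.1% of all genes were, and this rests on the DMSO libraries that stood apart. Without replicate 1 it was 7 higher and 2 lower.

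The compounds were tested at 10 nM, the dose they share, in 4 pairs of line and time. RBN-2397 minus RBN012337 gave 0 called members and 0 called genes by edgeR in all 4, and DESeq2 called 0 members in all 4. At an unadjusted p under 0.05 there were 1 member at 6 h and 0 at 24 h in NCI-H1373, and 0 at 6 h and 1 at 24 h in NCI-H647. Over all genes 153 and 250 had such a p in NCI-H1373, and 363 and 456 in NCI-H647. DSCC1, of a clamp loader needed for sister chromatid cohesion, had a difference of -0.64 at 6 h in NCI-H1373 (95% interval -1.24 to -0.04). RPA2, of the single-strand binding complex, had -0.46 at 24 h in NCI-H647 (95% interval -0.82 to -0.10). Both genes are named for their unadjusted p among the 52 members. Their intervals are not adjusted for the number of genes tested, and neither gene was called. Over the 52 members at 24 h the differences lay between -0.53 and 0.61 in NCI-H1373, and between -0.46 and 0.69 in the other line. The median SE was 0.31 and 0.34. These are ranges of estimates and set no limit on a true difference, and larger ones could also have gone uncalled. The labels give these compounds code names only and no structures.

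The 100 nM dose of RBN012337 was set against its 10 nM dose at 24 h, a comparison that was also added after the data had been seen. In NCI-H1373 all 52 members were lower at 100 nM, with a median of -0.63 (0.01 over all genes). None was called by edgeR, which also called 0 of all genes. Of the members 17 had an unadjusted p under 0.05, against 1052 of all 12832 genes, and DESeq2 called 0 members. ORC1 differed most by p, at -1.32 ± 0.33 (SE, adjusted p = 0.376). Without 100 nM library 3, the one with a score like the other treatments, 17 members were called. The count over all genes in that setting is not given here. In NCI-H647 the median was -0.27, with 0 called by edgeR, 2 at an unadjusted p under 0.05 (225 of all genes) and 0 by DESeq2.

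Other genes of the cycle were followed in 4 lists, whose calls were not checked with single libraries left out. Of 30 other replication genes, 6 were higher and 1 lower over the mean of 6 treatments at 24 h in NCI-H1373, with a median of 0.11. Among them TIMELESS, of the fork protection complex, rose by 1.22 ± 0.30 (SE, adjusted p = 0.00674, edgeR quasi-likelihood test), WDHD1 by 0.88 ± 0.23 and RNASEH2A by 1.0 ± 0.28. Of 25 brakes and drivers of G1/S tested, 3 rose and 3 fell, against 6.13% of all genes higher and 6.02% lower in this comparison. CDK4, the partner of cyclin D, rose by 1.01 ± 0.22 and CDC25A, a phosphatase that activates CDKs, by 2.04 ± 0.48, while CDKN1C, a CDK inhibitor, fell by 1.66 ± 0.39 and CDKN1A by 1.80 ± 0.47 (adjusted p = 0.0114). CDKN1C was at 24.8, 29.4 and 5.21 CPM in the DMSO libraries, against 1.13 to 16.8 CPM in the 18 treated ones, and so was high in the same pair of DMSO libraries as CDKN1A. Of 25 mitosis genes 0 rose and 2 fell, a share near that of all genes, with a median of -0.13. BUB1, of the spindle checkpoint, fell by 0.80 ± 0.20 (adjusted p = 0.00635).

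The mitosis genes were low in the same libraries as the replication genes in NCI-H647 and not in NCI-H1373. In NCI-H1373 at 24 h their mean log2 CPM was 6.62, 6.66 and 6.48 with RBN012337 at 100 nM and 6.77, 6.48 and 6.74 in DMSO, with all 18 treated libraries at 6.29 to 6.85. The libraries with low replication genes were thus not low in mitosis genes. In NCI-H647 it was 6.60, 5.21 and 6.42 at 100 nM and 6.58, 5.32 and 5.59 in DMSO, against 5.90 to 6.68 in the other 15, so that the same libraries were low for both lists. Over the mean of 6 treatments in NCI-H647, edgeR called 0 mitosis genes (median 0.44), while RECQL4, a helicase of replication start, rose by 1.38 ± 0.34 (adjusted p = 0.0132) and TIMELESS by 0.76 ± 0.22 (adjusted p = 0.0373). CCND1, cyclin D1, rose by 0.64 ± 0.18 (adjusted p = 0.0267). CDKN1A had -1.41 ± 0.63 there (adjusted p = 0.204). At 6 h in NCI-H1373 2 of 30 other replication genes were lower over the mean of 6 treatments, DBF4 and GMNN, by -0.63 and -0.85. Of 25 mitosis genes 4 were, NUSAP1, TOP2A, HMMR and BUB1, by -0.73 to -0.92, where 0.592% of all genes were called lower. The mean log2 CPM of the mitosis genes there was 6.39 to 6.72 in the 18 treated libraries, against 6.77, 6.91 and 6.98 in DMSO.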

How the data were processed

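Gene expression was measured by 3' digital gene expression sequencing of total RNA, per the labels' protocols. The authors deposited 1 table of estimated counts per gene for all 84 libraries, neither normalized nor pooled, in which 49.4% of nonzero values were not whole. The submitters' processing notes name Salmon and the hg38 build. Which annotation was used, and how molecular identifiers and strand were handled, is not given in the sources used here. Columns were matched to samples by title, and names and positions came from GENCODE 29 (57845 of 57964 genes). The labels write RBN012397 for the compound that the design text calls RBN-2397.

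Estimated counts were rounded. Each line was fitted on its 42 libraries in 14 groups with edgeR 4.0.16 in R 4.3.3 (limma 3.58.1): filterByExpr, TMM scaling, quasi-likelihood F test, Benjamini-Hochberg adjustment over all genes, threshold 0.05. Differences between lines used 84 libraries and 16177 genes. Errors of log2 differences are standard errors with 3 libraries per group, derived from the F statistic. They use 1 estimate of spread per gene, shared by all groups of the fit. The 24 h DMSO groups were wider than most groups, with a median SD of 0.73 in NCI-H1373 and 0.91 log2 CPM in NCI-H647. Errors and p-values of comparisons with these DMSO groups may therefore be too small. CPM are TMM-scaled, and the score is a mean of log2 CPM with a prior count of 2. Reads from the 3' ends do not allow levels to be compared between genes, and near-identical or overlapping genes may share reads. Python 3.11.15, pandas 2.3.3 and matplotlib 3.10.9 read the promoters and drew the figures. Scripts were tested on simulated counts with 1 spread for all genes, for RBN-2397 at 300 nM against DMSO at 24 h. Of 100 genes with a true log2 difference of 2, 71 were called in NCI-H1373 and 61 in NCI-H647. Of 100 genes with a difference of 1, 6 and 2 were called. A count of 0 called members therefore does not show that levels were equal.

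The members, lists and tests were chosen with earlier results of these data known. Each comparison names up to 6 called members by adjusted p, or up to 3 by unadjusted p where none was called, and up to 4 genes of other lists. A gene of these lists that met the rule is not reported here. Per-library values are given for the 10 members called most often. The treated libraries over time, RBN012337 at 100 nM against 10 nM and the mitosis score were added after the data had been seen. Alternatives were DESeq2 1.42.0, median-ratio scaling, no filter on low counts, the replicate number as a block, other score settings and leaving out each library in turn. No column of the table was left unmatched.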

Additional observations from a re-analysis of the deposited data

Results flagged for a closer look

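In NCI-H1373 the difference between the 6 treatments and DMSO was larger at 24 h than at 6 h for 4 genes of helicase loading, by a test of the difference between the times. On the log2 scale the later minus the earlier difference was 1.87 for MCM2, 1.38 for MCM6, 1.47 for ORC1 and 1.46 for CDC6 (edgeR quasi-likelihood test, 3 libraries per group). Without 24 h DMSO library 1 or 2, both low in replication genes, none of the 4 was called, and the same held without 6 h DMSO library 1 or 2. The calls of ORC1 and CDC6 were also lost without some single treated libraries, such as library 1 of RBN-2397 at 10 nM at 24 h.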

How the results depend on the processing

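Median-ratio scaling changed no count of called members by more than 1.5 times. Without the filter on low counts, against the counts given for the filtered genes, the members called were 14, 9 and 13 for RBN-2397 at 10 and 30 nM and RBN012337 at 10 nM in NCI-H1373 at 24 h (9, 5 and 7), and 1 in each of 3 treatments at 6 h (0), namely RBN-2397 at 10 nM and both lower doses of RBN012337. In NCI-H647 at 24 h they were 13, 10 and 12 for RBN-2397 in order of dose (1, 0 and 2), 12 and 3 for RBN012337 at 3 and 10 nM (0 and 0) and 15 for the mean of treatments (4). They were 25 for treated libraries over time in NCI-H647 (12), 1 for the difference between times there (0) and 3 for 100 against 10 nM in NCI-H1373 (0). Calls over all genes rose as well. In NCI-H1373 they were 957, 581 and 575 at 24 h (941, 277 and 344) and 407, 441 and 184 at 6 h (40, 60 and 25). In NCI-H647 at 24 h they were 786, 629 and 905 for RBN-2397 (266, 139 and 500). RBN012337 had 609 and 281 (100 and 26), and the mean had 1112 (736). The last 3 comparisons had 2136, 178 and 106 (2022, 0 and 0). DESeq2 called 8 and 11 members for RBN-2397 at 30 nM and RBN012337 at 10 nM in NCI-H1373 at 24 h, and 1 and 1 for RBN-2397 at 10 nM and RBN012337 at 3 nM at 6 h. In NCI-H647 at 24 h DESeq2 called 6, 3 and 7 for RBN-2397, 3 and 1 for RBN012337 at 3 and 10 nM, and 11 for the mean. Over all genes DESeq2 called 453 and 496 in NCI-H1373 at 24 h and 177 and 204 at 6 h (277, 344, 40 and 60 by edgeR). In NCI-H647 it called 563, 365 and 781 for RBN-2397, 362 and 63 for RBN012337, and 923 for the mean. The cause was not tested.

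With the replicate number as a block, the members called at 24 h were 22, 14 and 23 for RBN-2397 and 27 and 20 for RBN012337 at 3 and 10 nM in NCI-H1373, with 26 for the mean and 11 for the difference between times. At 6 h the block gave 2, 4, 2 and 3 for RBN-2397 at 10 and 300 nM, RBN012337 at 3 nM and the mean. Over all genes it gave 505, 830, 547 and 597 there, against 40, 206, 60 and 149 without it. In NCI-H647 at 24 h the block gave 9, 6 and 12 for RBN-2397, 6 and 2 for RBN012337 at 3 and 10 nM, 13 for the mean and 23 for treated libraries over time. The block changed no other count by more than 1.5 times. Calls over all genes rose as well. At 24 h in NCI-H1373 they were 1667, 795 and 2252 for RBN-2397 and 1851 and 897 for RBN012337. Without the block they were 941, 277, 1525, 1091 and 344. In NCI-H647 they were 764, 488, 1064, 457 and 85, against 266, 139, 500, 100 and 26. For the mean they were 2308 and 1216, against 1559 and 736. The difference between times had 385 in NCI-H1373, against 68. Treated libraries over time had 2838 in NCI-H647, against 2022. The labels give the numbers no shared culture or day. Correlations between libraries were taken over the tested genes, after the mean log2 CPM of each group was subtracted. By this measure treated and DMSO libraries of 1 number correlated above 0.1 in 15 and 13 of 18 pairs in NCI-H1373 (6 and 24 h). In NCI-H647 they did in 8 and 7 of 18. Not every pair did, so the numbers were not taken to pair the samples. As a hint from the data, by the same measure 21, 21, 21 and 20 of 21 libraries correlated best with their own number.

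Leaving out 1 library at a time gave 0 to 26, 0 to 22 and 2 to 28 called members for RBN-2397 at 24 h in NCI-H1373, 2 to 29, 0 to 27 and 0 to 0 for RBN012337, and 2 to 31 for the mean, with the highest count without DMSO library 3 in all but the 100 nM dose. In NCI-H647 it gave 0 to 29, 0 to 25 and 0 to 28 for RBN-2397, 0 to 26, 0 to 14 and 0 to 2 for RBN012337, and 0 to 30 for the mean, highest without DMSO library 1. Over all genes the calls without DMSO library 3 of NCI-H1373 were 1505, 762, 1900, 1653, 917 and 29 in the same order. Without DMSO library 1 of NCI-H647 they were 1194, 972, 1390, 922, 221 and 51. For the mean they were 2044 and 1666, against 1559 and 736 with all libraries. At 6 h it gave 0 to 1 for RBN-2397 at 300 nM and for RBN012337 at 3 nM and 0 to 2 for the mean in NCI-H1373, and 0 to 0 in the other treatments of both lines. DMSO over time gave 7 to 38 and 0 to 4, the difference between times 0 to 23 and 0 to 4, treated libraries over time 26 to 38 and 8 to 30, and 100 against 10 nM 0 to 17 and 0 to 0, each for NCI-H1373 and NCI-H647. For treated libraries over time the counts over all genes are not given here. DMSO of NCI-H1373 against NCI-H647 gave 9 to 14 at 6 h and 9 to 16 at 24 h. The difference between lines in response and between compounds at 10 nM gave 0 to 0. Signs were checked only for the members named in each comparison. Among these E2F1 was the 1 to change sign, in the difference in response between the lines at 24 h. It was 1.24 with all libraries and ran from -0.99 without replicate 1 to 3.35 without replicate 2. Medians over the members changed sign in several comparisons. They ran from -0.56 to 0.51 in that difference between the lines, and from -0.83 to 0.15 for DMSO over time in NCI-H647. The score difference from DMSO over 6 treatments in NCI-H1373 was -0.05 at 6 h and 0.08 with library size alone. Leave-one-out values of it ran from -0.06 to -0.04 at 6 h and from 0.43 to 0.95 at 24 h, and in NCI-H647 from 0.00 to 0.08 and from 0.35 to 0.95.

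With 3 libraries per group and a DMSO group this wide at 24 h, small differences cannot be told from the spread. Depth limits members such as CDC45, POLA2, POLD1 and E2F1, with 2 to 15 counts per DMSO library in NCI-H1373. No untreated library was analysed here, so an effect of the vehicle and a change of the culture with time cannot be told apart.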
